A study of Mus musculus with 32 samples.

Results

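Repeated injury with carbon tetrachloride (CCl4) is described here in the livers of hypothyroid wild-type mice, as 4 CCl4 livers set against 4 oil livers. These 8 libraries were chosen by their labels, out of 32 in the series. The 4 CCl4 mice were wild type, were fed PTU/LID chow, a low-iodine diet with an inhibitor of thyroid hormone synthesis, and received PBS and no hormone; CCl4 was given at 0.4 µl/g in 9 injections over 4 weeks. The 4 oil mice had the same genotype, diet and PBS, with oil in place of CCl4. RNA was purified 24 hours after the last injection. For 2 comparisons near the end, 8 Thrb knockout mice, which lack the beta form of the receptor for thyroid hormone and had the same diet and PBS, and 8 wild-type mice that drank water with triiodothyronine (T3, the active hormone) at 1 µg/ml during the last week are used, 4 on CCl4 and 4 on oil in each case. The labels used here give neither age, sex nor strain. The oil mice of the main comparison were themselves hypothyroid, so no euthyroid liver enters that comparison.

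CCl4 is a solvent that cytochrome P450 enzymes, chiefly CYP2E1, turn into a trichloromethyl radical. Those enzymes lie mostly in the hepatocytes around the central vein, which therefore die first, and the surviving hepatocytes lower the enzymes that activate the solvent. Repeated dosing brings in macrophages and neutrophils and turns the vitamin A-storing stellate cells into collagen-secreting myofibroblasts, and the matrix they lay down is the scar of fibrosis. Thyroid hormone acts in the liver mostly through its beta receptor and sets many of the genes of bile acid, fat and carbohydrate metabolism.

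Levels are CPM, the count scale corrected for library size, with TMM factors, and are listed in the order of animals 1 to 4 of each group. Fold changes are log2 values (CCl4 over oil). The standard error after ± was worked back from the test, as the size of the log2 value over the square root of the test's F value. Means are given ± SD over the 4 animals of a group, and a gene was called when the adjusted p of edgeR's quasi-likelihood test was below 0.05. The 8 libraries held 19260459 to 26118055 counts. Albumin held 4.62% to 6.02% of the counts of CCl4 livers and 9.36% to 11.9% of those of oil livers. The most abundant genes that together held 50% of the counts numbered 378 to 525 in CCl4 livers and 176 to 258 in oil livers. Hepatocyte RNA thus made up much of every library, and 6 of 8 defining hepatocyte genes were lower with CCl4. CCl4 animal 2 stood apart: a list of skeletal muscle genes summed to 1094 CPM in it, against 0.210 to 1.47 CPM in the other 7 livers. A list of stomach genes summed to 199.9 CPM in CCl4 animal 2 and to at most 0.107 CPM in the others. Many results that rest on this animal are given with and without it. List counts given only once are those with all 4 CCl4 livers.

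CCl4 changed genes of most functional classes of the liver. Of 15599 genes tested, 7202 were called, which is 46.2%: 3834 were higher with CCl4 (24.6% of genes tested) and 3368 were lower (21.6%). These 2 shares are the background against which the gene lists are read, together with the median fold change over all genes, 0.04. With library totals as the only scaling that median was 0.43 and 54.4% of genes were called, 6941 higher (44.5%) and 1549 lower (9.93%), so every direction given here is relative to the TMM scaling. A fold above 2 was passed by 1689 of the higher genes (10.8% of genes tested) and 1509 of the lower ones (9.67%), and a fold above 4 by 537 (3.44%) and 318 (2.04%). All CCl4 livers lay above all oil livers in 2583 genes (16.6%) and below them in 2707 (17.4%), 33.9% together, which is the background for statements below that groups were separate. Without CCl4 animal 2, 5731 of 15814 genes were called (36.2%), 2990 higher (18.9%) and 2741 lower (17.3%). A fit of the 8 libraries alone called 4504 of 14318 genes (31.5%), 2512 higher (17.5%) and 1992 lower (13.9%). In a bulk tissue, fewer cells of a type and less RNA per cell cannot be told apart, which holds for every cell type below.

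**Figure D1:**
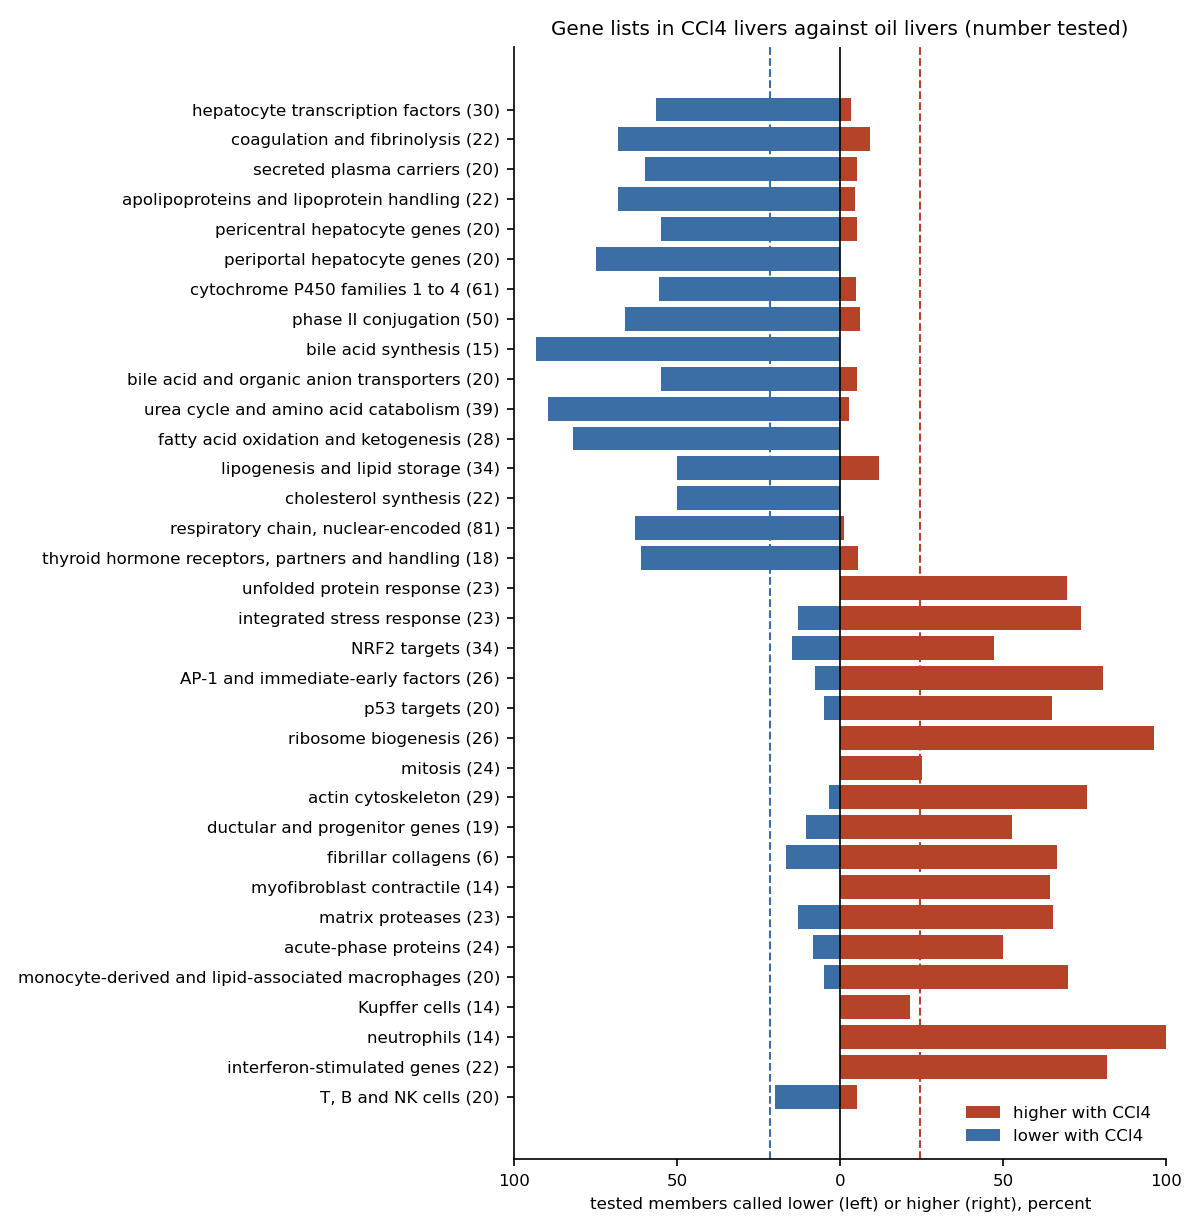
Share of the tested members of 34 gene lists that were called higher (bars to the right) or lower (bars to the left) in CCl4 livers than in oil livers, in percent. Dashed lines mark the shares over all 15599 genes, 24.6% higher and 21.6% lower.

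Among called genes that reached 5 CPM and did not overlap between the groups, those with the 15 largest rises included acute-phase, wound-associated and immune genes described below. Wfdc3, a small secreted protein with a protease-inhibitor fold, had 44.9, 110.1, 36.95 and 38.2 CPM in CCl4 livers, against 0.281, 0.878, 0.253 and 2.25 CPM in oil livers (5.99 ± 0.54, adjusted p = 1.77e-08). Chil3, a chitinase-like protein of activated macrophages, averaged 6.48 ± 3.41 CPM in CCl4 livers and 0.126 ± 0.0637 CPM in oil livers (5.61 ± 0.66, adjusted p = 5.1e-07). The class I major histocompatibility gene H2-Q1 averaged 7.21 ± 3.27 CPM in CCl4 livers and 0.1703 ± 0.174 CPM in oil livers (5.39 ± 0.61, adjusted p = 3.59e-07). H2-Q1 belongs to a family of similar copies, so its reads are uncertain. Of 14 tested genes of class I antigen presentation, 1 was called higher and 3 lower (median log2 fold change 0.11); without CCl4 animal 2, 4 were higher and none lower, and in the fit of the 8 libraries 1 was higher and none lower. At the other end stood Nxpe2, which had 0.721, 0.412, 0.429 and 1.62 CPM in CCl4 livers, against 26.04, 22.5, 14.7 and 2.62 CPM in oil livers (-4.37 ± 0.54, adjusted p = 9.95e-07). The succinate receptor gene Sucnr1 had 3.81, 0.9895, 3.11 and 11.3 CPM in CCl4 livers, against 56.8, 79.6, 42.4 and 35.9 CPM in oil livers (-3.48 ± 0.48, adjusted p = 3.42e-06). Acss2, which turns acetate into acetyl-CoA, averaged 35.8 ± 22.9 CPM in CCl4 livers and 349 ± 193 CPM in oil livers (-3.28 ± 0.67, adjusted p = 0.000302). Dio3os, a noncoding RNA beside the deiodinase gene Dio3, averaged 1.64 ± 1.25 CPM in CCl4 livers and 16.3 ± 6.81 CPM in oil livers (-3.31 ± 0.48, adjusted p = 7.09e-06). Dio3, which inactivates T3, fell beside it at a low level, averaging 0.159 ± 0.116 CPM in CCl4 livers and 0.765 ± 0.473 CPM in oil livers (-2.23 ± 0.57, adjusted p = 0.00263).

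By difference in mean CPM, the 10 largest gains were Hpx, Hp, Hspa5, Saa1, Itih4, Saa2, Serpina3k, Ctsl, Fth1 and Sqstm1, a set of secreted acute-phase proteins, a chaperone, a protease, a ferritin and an autophagy receptor. The selective autophagy receptor Sqstm1 had 1889, 2071, 1433 and 1234 CPM in CCl4 livers, against 457, 470.4, 539.6 and 639.5 CPM in oil livers (1.65 ± 0.17, adjusted p = 1.14e-07). The lysosomal protease Ctsl had 2253, 4153, 1725 and 1953 CPM in CCl4 livers, against 749, 812, 1339 and 1433 CPM in oil livers (1.22 ± 0.27, adjusted p = 0.000562). All CCl4 livers exceeded all oil livers for both. The calls of Serpina3k and Fth1 were lost without CCl4 animal 2 (adjusted p = 0.153 and 0.211). The 10 largest losses included albumin (Alb), with 35900, 44810, 43080 and 52910 CPM in CCl4 livers, against 139600, 115100, 110700 and 94300 CPM in oil livers (-1.38 ± 0.23, adjusted p = 3.7e-05), and the mitochondrial transcript mt-Co1 of cytochrome oxidase (-0.85 ± 0.17, adjusted p = 0.000314). Transthyretin (Ttr), a thyroid hormone carrier in blood and another of the 10, averaged 3857 ± 1119 CPM in CCl4 livers and 9786 ± 1874 CPM in oil livers (-1.34 ± 0.25, adjusted p = 0.000128).

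The secretory and metabolic genes of the hepatocyte fell. Among 22 coagulation and fibrinolysis genes 15 were lower and 2 higher (median -0.82), among 20 plasma carrier genes 12 were lower and 1 higher (median -0.81), and among 22 apolipoprotein genes 15 were lower and 1 higher (median -0.67, and 10 lower without CCl4 animal 2). Serpinc1, which encodes antithrombin, had 969, 736, 851 and 1618 CPM in CCl4 livers, against 2489, 2647, 2244 and 2422 CPM in oil livers (-1.23 ± 0.21, adjusted p = 5.42e-05). Clotting factor IX (F9) averaged 100.5 ± 24.6 CPM in CCl4 livers and 208 ± 33.2 CPM in oil livers (-1.05 ± 0.17, adjusted p = 2.27e-05). Both groups were separate for these 2 genes, and CCl4 animal 4 was the least reduced in each. Plasma prekallikrein (Klkb1) spread more, with 41.3, 4.95, 28.2 and 90.6 CPM in CCl4 livers, against 157, 169, 148 and 126 CPM in oil livers (-1.86 ± 0.52, adjusted p = 0.00442). Its lowest value was in animal 2 and its highest in animal 4. Against this, Apoa4, an apolipoprotein of triglyceride-rich particles, was the 1 member of its list that rose, with 603, 1842, 761 and 470.3 CPM in CCl4 livers, against 104, 48.3, 99.4 and 58.9 CPM in oil livers (3.56 ± 0.47, adjusted p = 2.11e-06). CCl4 animal 2 had the highest Apoa4, and the other 3 CCl4 livers still exceeded every oil liver. Coagulation factor XI (F11) was not called (-0.30 ± 0.31, adjusted p = 0.453).

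A list of hepatocyte transcription factors, which includes metabolic nuclear receptors, moved the same way, with 17 of 30 lower and 1 higher (median -0.80). In the fit of the 8 libraries alone 10 were lower and 1 higher. With library totals as the only scaling 12 were lower and 4 higher. Esrrg, an orphan nuclear receptor, had 0.2004, 0.206, 0.0715 and 0.485 CPM in CCl4 livers, against 6.19, 6.31, 7.28 and 2.196 CPM in oil livers (-4.50 ± 0.43, adjusted p = 4.02e-08). The farnesoid X receptor gene Nr1h4, the bile acid sensor, averaged 65.97 ± 26.6 CPM in CCl4 livers and 137 ± 26.9 CPM in oil livers (-1.05 ± 0.24, adjusted p = 0.000941). The xenobiotic sensors Nr1i2 (pregnane X receptor; -1.16 ± 0.34, adjusted p = 0.00629) and Nr1i3 (constitutive androstane receptor; -1.79 ± 0.59, adjusted p = 0.014) were also lower. Oil animal 4 overlapped the CCl4 livers for Nr1i3 at 326 CPM. The fatty acid sensor Ppara was lower (-1.02 ± 0.38, adjusted p = 0.0287), a call lost without CCl4 animal 2 (-0.71, adjusted p = 0.106). Hnf4a, the master regulator of hepatocyte genes, had 392, 212, 651 and 502 CPM in CCl4 livers, against 773, 557, 675 and 636 CPM in oil livers, which overlapped and was not called (-0.59 ± 0.25, adjusted p = 0.0529).

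Plasma proteins of the acute phase, which the liver secretes in inflammation, rose while the constitutive ones fell. Of 24 acute-phase genes 12 were higher and 2 lower (median 1.21); without CCl4 animal 2, 9 were higher and none lower. The serum amyloid A genes led. Saa1 (ENSMUSG00000074115, chr7:46740497-46742980 on GRCm38) had 472, 3511, 2159 and 1173 CPM in CCl4 livers, against 7.65, 7.24, 5.93 and 5.28 CPM in oil livers (8.13 ± 0.95, adjusted p = 4.75e-07). Its neighbour Saa2 (ENSMUSG00000057465, chr7:46751790-46754313 on GRCm38) had 409, 3251, 1893 and 957 CPM in CCl4 livers, against 3.82, 3.24, 2.31 and 2.301 CPM in oil livers (9.13 ± 1.18, adjusted p = 1.54e-06). Saa1 and Saa2 are near-identical copies that can exchange reads, so how the rise divides between them is uncertain. Saa3, the copy expressed mainly outside hepatocytes, reached 54.5, 29.8, 28.6 and 50.9 CPM in CCl4 livers, against 2.08, 6.36, 2.19 and 2.98 CPM in oil livers (3.60 ± 0.48, adjusted p = 2.13e-06). All 3 were separate between the groups, and the order of animals differed, with animal 2 highest for Saa1 and animal 1 for Saa3. The siderophore-binding lipocalin Lcn2 averaged 750.5 ± 636 CPM in CCl4 livers and 9.34 ± 4.74 CPM in oil livers. Haptoglobin (Hp), the haemoglobin scavenger, averaged 5153 ± 2524 CPM in CCl4 livers and 1731 ± 500.2 CPM in oil livers (1.57 ± 0.35, adjusted p = 0.000652). Haemopexin (Hpx), which binds free haem, averaged 7216 ± 2407 CPM in CCl4 livers and 2640 ± 584 CPM in oil livers (1.45 ± 0.27, adjusted p = 0.000122). The orosomucoid Orm2 averaged 147 ± 68.97 CPM in CCl4 livers and 11.6 ± 9.01 CPM in oil livers (3.67 ± 0.71, adjusted p = 0.000175). The iron hormone hepcidin (Hamp; 1.03 ± 0.55, adjusted p = 0.128) and serum amyloid P (Apcs; 0.35 ± 0.40, adjusted p = 0.496) were not called. Itih4, an inter-alpha-trypsin inhibitor chain, was higher (1.10 ± 0.31, adjusted p = 0.00488) but not without CCl4 animal 2 (0.72, adjusted p = 0.0562), and the metallothioneins Mt1 (2.48 ± 0.73, adjusted p = 0.00712) and Mt2 (2.78 ± 0.77, adjusted p = 0.00418) behaved likewise, with adjusted p = 0.106 and 0.0987 without that animal. Mt1 had 589, 2573, 688 and 148 CPM in CCl4 livers, against 311, 158, 189.7 and 60.5 CPM in oil livers.

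Genes of both zones of the lobule fell. Of 20 genes typical of pericentral hepatocytes 11 were lower and 1 higher (median -1.25), and of 20 periportal genes 15 were lower and none higher (median -1.48). Cyp2e1 (ENSMUSG00000025479, chr7:140763739-140774987 on GRCm38), the enzyme that activates CCl4, had 808, 1109, 478 and 1852 CPM in CCl4 livers, against 7160, 11370, 8228 and 3795 CPM in oil livers (-2.85 ± 0.45, adjusted p = 2.01e-05), about 7.19-fold lower. The glutamate transporter gene Slc1a2 of the innermost pericentral cells had 2.81, 1.94, 1.79 and 0.363 CPM in CCl4 livers, against 138, 107, 45.03 and 10.7 CPM in oil livers (-5.44 ± 0.71, adjusted p = 1.63e-06). Glutamine synthetase (Glul), which marks the same cells, had 38.3, 78.7, 26.8 and 61.8 CPM in CCl4 livers, against 752, 226, 53.9 and 19.1 CPM in oil livers. Glul was called (-2.35 ± 0.67, adjusted p = 0.00527) although the groups overlapped, because the oil livers alone differed from 19.1 to 752 CPM; Slc1a2 fell across the oil animals in the same order, 138 to 10.7 CPM. What set these 4 oil livers apart was not tested. Of the Wnt feedback genes, Axin2 (-0.69 ± 0.40, adjusted p = 0.155) and Lgr5 (-0.86 ± 0.45, adjusted p = 0.119) were not called. On the periportal side, Hal, which breaks down histidine, had 151, 82.8, 164 and 334 CPM in CCl4 livers, against 817, 745, 768 and 725 CPM in oil livers (-2.06 ± 0.38, adjusted p = 0.000124).

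The detoxifying enzymes fell as families. Of 61 cytochrome P450 genes of families 1 to 4, 34 were lower and 3 higher (median -0.99), and of 50 phase II conjugation genes 33 were lower and 3 higher (median -1.37). The fit of only the 8 libraries tested fewer members and called 13.9% of all its genes lower. In it 24 P450 genes were lower, 3 higher and 28 not called, and 20 phase II genes were lower, 2 higher and 17 not called. Cyp2c29, a pericentral hydroxylase, averaged 526 ± 424 CPM in CCl4 livers and 2337 ± 953 CPM in oil livers (-2.15 ± 0.39, adjusted p = 9.42e-05). The dioxin-inducible Cyp1a2 (-1.14 ± 0.52, adjusted p = 0.0704) and the fatty acid hydroxylase Cyp4a14 (-1.18 ± 0.53, adjusted p = 0.0692) were not called. Cyp2a4, a steroid hydroxylase, went the other way with 1332, 1326, 1092 and 673 CPM in CCl4 livers, against 68.1, 435, 179 and 435 CPM in oil livers (1.99 ± 0.41, adjusted p = 0.000363), and all 4 CCl4 livers exceeded all oil livers. The sulfotransferase gene Sult3a1 showed one of the deepest losses, with 0.0801, 0.0825, 0.107 and 0.121 CPM in CCl4 livers, against 52.1, 2.96, 7.28 and 0.575 CPM in oil livers (-7.24 ± 1.32, adjusted p = 9.96e-05); the oil livers themselves spread widely and oil animal 1 was far above the others. Slc22a3, an organic cation transporter of pericentral cells, was near the limit of counting in CCl4 livers, with 0, 0.0412, 0.0357 and 0.0808 CPM in CCl4 livers, against 6.13, 1.54, 3.24 and 0.889 CPM in oil livers (-6.03 ± 0.77, adjusted p = 1.38e-06). Gsta3, a glutathione transferase, had 754, 358, 573 and 1282 CPM in CCl4 livers, against 3328, 2505, 2224 and 1903 CPM in oil livers (-1.75 ± 0.31, adjusted p = 8.42e-05). Members of the Cyp2c, Sult and Gsta families share sequence, so single values within a family are uncertain.

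**Figure D2:**
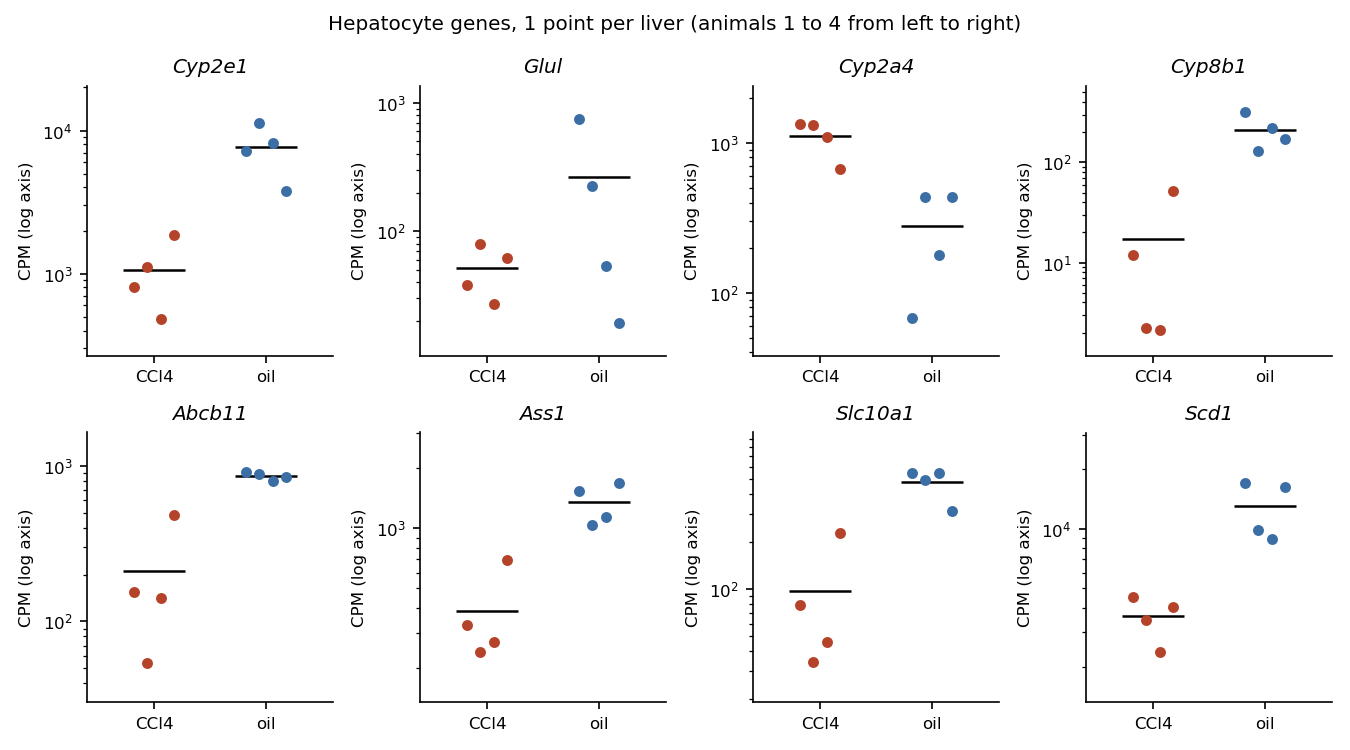
CPM of 8 hepatocyte genes in each liver, on log axes, with the 4 CCl4 livers left of the 4 oil livers and a horizontal line at each group's mean. Cyp2e1, Cyp8b1, Abcb11, Ass1, Slc10a1 and Scd1 are separate between the groups, Cyp2a4 is separate in the opposite direction, and Glul overlaps because of 2 low oil livers.

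Bile acid synthesis was the list with the highest share of called members among the metabolic ones, with 14 of 15 genes lower and none higher (median -1.08). Cyp7a1, the rate-limiting enzyme, had 3.09, 0.3298, 0.143 and 14.5 CPM in CCl4 livers, against 95.7, 9.76, 59.8 and 111 CPM in oil livers (-3.94 ± 0.97, adjusted p = 0.00174). Oil animal 2 and CCl4 animal 4 overlapped for Cyp7a1. Cyp8b1, which makes cholic acid, had 11.9, 2.23, 2.11 and 52.4 CPM in CCl4 livers, against 321, 130.4, 221 and 171 CPM in oil livers (-3.62 ± 0.85, adjusted p = 0.00118), and the groups were separate. Cyp7b1 of the alternative pathway averaged 3.76 ± 2.06 CPM in CCl4 livers and 19.3 ± 3.72 CPM in oil livers (-2.35 ± 0.32, adjusted p = 2.78e-06). Transport followed: of 20 bile acid and organic anion transporter genes 11 were lower and 1 higher. The uptake carrier Slc10a1 had 79.4, 34.1, 46.2 and 228 CPM in CCl4 livers, against 551, 497, 549 and 315 CPM in oil livers (-2.30 ± 0.44, adjusted p = 0.000168). The bile salt export pump Abcb11 had 156, 54.3, 141 and 485 CPM in CCl4 livers, against 907, 887, 794 and 851 CPM in oil livers (-2.04 ± 0.40, adjusted p = 0.000218). In both, animal 4 kept the most and animal 2 the least. The basolateral export pump Abcc4 was the member that rose (1.18 ± 0.48, adjusted p = 0.044), and its groups overlapped.

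Amino acid breakdown and the urea cycle lost 35 of 39 genes, with 1 higher (median -1.63), which was the lowest median of the metabolic lists. Ass1, argininosuccinate synthase, had 328, 242, 270 and 697 CPM in CCl4 livers, against 1536, 1046, 1145 and 1682 CPM in oil livers (-1.82 ± 0.39, adjusted p = 0.000547). Hpd, which acts in tyrosine breakdown, averaged 589.6 ± 446 CPM in CCl4 livers and 2491 ± 256 CPM in oil livers (-2.08 ± 0.48, adjusted p = 0.000877). Genes of fat burning fell as well: 23 of 28 genes of fatty acid oxidation and ketogenesis were lower and none higher (median -0.82). In the fit of the 8 libraries alone 15 were lower and 1 higher. The mitochondrial gatekeeper Cpt1a was lower (-0.83 ± 0.31, adjusted p = 0.0293), but not without CCl4 animal 2 (adjusted p = 0.119).

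Many genes of fat synthesis and storage were lower too, with 17 of 34 lipogenesis and lipid storage genes lower and 4 higher (median -0.78). The desaturase Scd1 had 4537, 3459, 2385 and 4033 CPM in CCl4 livers, against 17060, 9892, 8904 and 16330 CPM in oil livers (-1.86 ± 0.49, adjusted p = 0.00287). Fatty acid synthase (Fasn) averaged 152 ± 81.4 CPM in CCl4 livers and 407 ± 145 CPM in oil livers (-1.42 ± 0.45, adjusted p = 0.0114). Of 22 cholesterol synthesis genes 11 were lower and none higher (median -0.99), although the squalene epoxidase Sqle was not called (0.34 ± 0.38, adjusted p = 0.482). Without CCl4 animal 2, 8 of them were lower and none higher (median -0.67). In glucose metabolism, 6 of 31 genes were higher and 11 lower. Hk2, a hexokinase of tissues other than liver, had 1.92, 5.24, 2.43 and 3.43 CPM in CCl4 livers, against 1.01, 1.097, 0.926 and 1.05 CPM in oil livers (1.67 ± 0.33, adjusted p = 0.000189). The pyruvate kinase of non-hepatic and growing cells, Pkm, averaged 51.4 ± 13.9 CPM in CCl4 livers and 18.6 ± 3.46 CPM in oil livers (1.47 ± 0.20, adjusted p = 3.65e-06). Both were separate between the groups. Of 81 nuclear-encoded respiratory chain genes 51 were lower and 1 higher (median -0.45), but with library totals as the only scaling 12 were lower and 10 higher and the median was -0.05, so this group lay close to the shift between scalings. Of 9 mitochondrially encoded transcripts tested 7 were lower.

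Among 18 genes that bind, carry or respond with thyroid hormone receptors 11 were lower and 1 higher (median -0.74). The beta receptor Thrb (ENSMUSG00000021779, chr14:17660261-18038090 on GRCm38) had 23.8, 10.7, 33.1 and 26.3 CPM in CCl4 livers, against 56.9, 62.7, 66.4 and 50.1 CPM in oil livers (-1.33 ± 0.21, adjusted p = 2.32e-05). Thra, the alpha receptor, averaged 9.92 ± 2.93 CPM in CCl4 livers and 24.02 ± 4.05 CPM in oil livers (-1.27 ± 0.21, adjusted p = 3.38e-05). The lipogenic hormone target Thrsp averaged 12.8 ± 5.0 CPM in CCl4 livers and 57.03 ± 20.3 CPM in oil livers (-2.15 ± 0.56, adjusted p = 0.00256). Dio1, the deiodinase that makes T3 in the liver and is itself a T3 target, was at or below 1.00 CPM in all 8 livers and was not called (0.62 ± 0.42, adjusted p = 0.237).

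Several stress programmes rose. The unfolded protein response, which the endoplasmic reticulum sends when proteins misfold there, had 16 of 23 genes higher and none lower (median 0.75), with the same counts without CCl4 animal 2 and in the fit of the 8 libraries alone. The chaperone Hspa5 (ENSMUSG00000026864, chr2:34771970-34777547 on GRCm38) had 3401, 4182, 2308 and 2817 CPM in CCl4 livers, against 685, 412, 922 and 1429 CPM in oil livers (1.88 ± 0.33, adjusted p = 5.85e-05). Creld2 (ENSMUSG00000023272, chr15:88819646-88826683 on GRCm38), a secreted foldase of the same response, had 182, 233, 135 and 104 CPM in CCl4 livers, against 24.2, 15.4, 27.6 and 46.96 CPM in oil livers (2.52 ± 0.41, adjusted p = 3e-05). Syvn1, a ubiquitin ligase that clears misfolded proteins, averaged 229.7 ± 36.5 CPM in CCl4 livers and 97.6 ± 21.1 CPM in oil livers (1.24 ± 0.29, adjusted p = 0.00114). The disulfide isomerase Pdia6 averaged 659.9 ± 82.4 CPM in CCl4 livers and 385 ± 116 CPM in oil livers (0.78 ± 0.24, adjusted p = 0.00827). The groups were separate for all 4. The ER stress response element, searched as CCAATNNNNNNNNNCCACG on both strands in the 250 bases before each RefSeq start of a gene (a gene can have several, and a start can lie inside the Ensembl span given here), was held by 8 of 20 genes of this list with a window (40%), against 19 of all 11342 tested genes with a window (0.168%). The list gathers known genes of this response and its 8 are among the 19, so its share does not bear on CCl4. The element is the site described for the factors ATF6 and NF-Y. It stood in 9 of 2923 genes called higher (0.308%) and 2 of 2501 called lower (0.08%). The stretches around it in 4 of the genes above are shown because this list held the most matches; they come from RefSeq on GRCm38.p6, are written on the gene's strand from 5′ to 3′, and carry the element in capitals (CGTGG first where it lies on the other strand).
Hspa5 (chr2:34771985-34772083, plus strand): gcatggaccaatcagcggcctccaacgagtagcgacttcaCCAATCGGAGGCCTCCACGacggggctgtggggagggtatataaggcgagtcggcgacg
Creld2 (chr15:88819480-88819578, plus strand): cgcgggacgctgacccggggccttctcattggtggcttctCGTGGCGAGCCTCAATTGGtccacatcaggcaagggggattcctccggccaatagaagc
Syvn1 (chr19:6046492-6046575, plus strand): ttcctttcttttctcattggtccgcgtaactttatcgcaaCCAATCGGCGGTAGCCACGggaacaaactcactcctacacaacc
Pdia6 (chr12:17266451-17266549, plus strand): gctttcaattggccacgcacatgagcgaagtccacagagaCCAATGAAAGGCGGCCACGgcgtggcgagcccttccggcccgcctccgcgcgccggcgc

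Of 23 genes of the integrated stress response, in which ATF4 raises amino acid supply and stress factors when translation is slowed, 17 were higher and 3 lower (median 2.03). Atf3, a stress-induced transcription factor counted in the AP-1 list, had 171, 79.7, 34.7 and 35.5 CPM in CCl4 livers, against 1.97, 0.713, 1.39 and 12.2 CPM in oil livers (4.30 ± 0.70, adjusted p = 2.73e-05). Ddit3, which encodes the death-promoting factor CHOP, had 170.4, 102, 42.96 and 91.6 CPM in CCl4 livers, against 10.6, 9.49, 9.76 and 30.1 CPM in oil livers (2.76 ± 0.45, adjusted p = 3.03e-05). Oil animal 4 had the highest oil value for both, and CCl4 animal 1 the highest of all. Chac1, which degrades glutathione, averaged 16.02 ± 13.5 CPM in CCl4 livers and 1.15 ± 0.679 CPM in oil livers (3.82 ± 0.74, adjusted p = 0.000175). The transcription regulator Nupr1 averaged 606 ± 322 CPM in CCl4 livers and 64.9 ± 74.5 CPM in oil livers (3.22 ± 0.97, adjusted p = 0.00779). The hormone gene Fgf21 was not called (2.03 ± 0.85, adjusted p = 0.0521), though it was without CCl4 animal 2 (2.30, adjusted p = 0.0430). The composite element core TTGCATCA, described for ATF4 with a CEBP partner, was held by 4 of 20 genes of this list (20%) and by 84 of all 11342 (0.741%). This list too gathers known genes of its response, so its share does not bear on CCl4. Among all genes called higher the share of the element core was 0.65%, and among those called lower 0.76%. It is shown in capitals for Chac1 and Nupr1.
Chac1 (chr2:119351009-119351096, plus strand): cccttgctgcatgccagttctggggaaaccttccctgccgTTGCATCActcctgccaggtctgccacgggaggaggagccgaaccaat
Nupr1 (chr7:126625533-126625620, minus strand): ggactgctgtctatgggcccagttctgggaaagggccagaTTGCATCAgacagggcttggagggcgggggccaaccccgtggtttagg

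**Figure D3:**
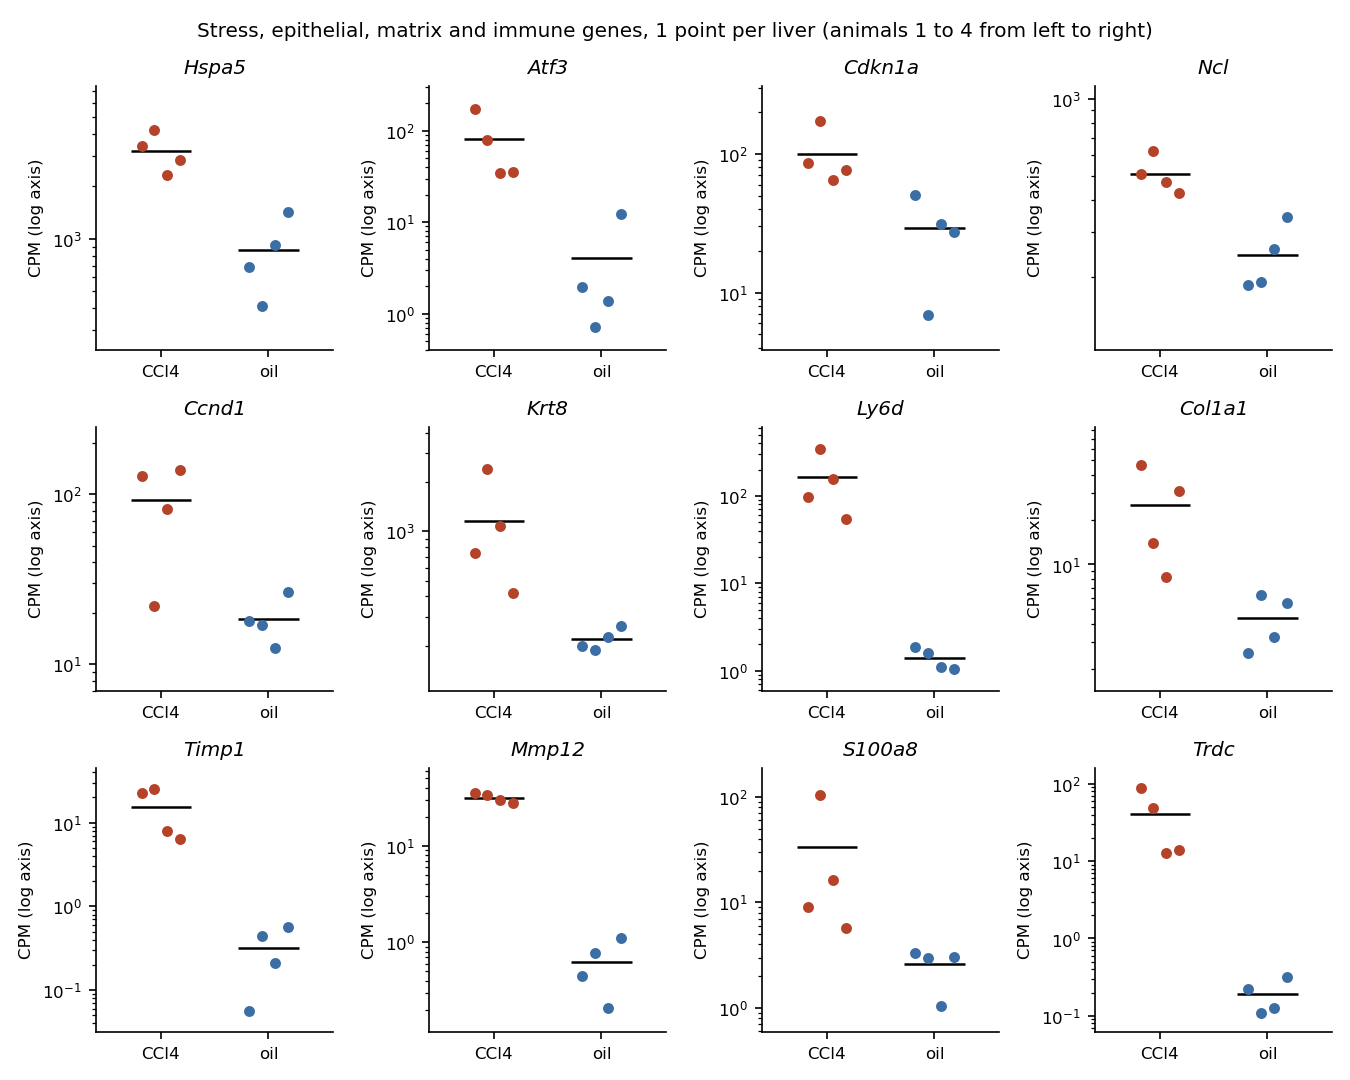
CPM of 12 stress, epithelial, matrix and immune genes in each liver, on log axes, with the 4 CCl4 livers left of the 4 oil livers and a horizontal line at each group's mean. All 12 are separate between the groups except Ccnd1; animal 2 is highest for Krt8 and S100a8, and animals 1 and 4 for Col1a1.

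Antioxidant genes under the factor NRF2 were mixed, with 16 of 34 higher and 5 lower (median 0.32). Srxn1, which repairs oxidised peroxiredoxins, had 796, 890.2, 546 and 626 CPM in CCl4 livers, against 87.96, 66.7, 161 and 199.8 CPM in oil livers (2.47 ± 0.33, adjusted p = 2.8e-06). Gclc, the rate-limiting enzyme of glutathione synthesis, had 1069, 1885, 2937 and 806 CPM in CCl4 livers, against 871, 676, 609.5 and 639 CPM in oil livers (1.26 ± 0.34, adjusted p = 0.00331). Haem oxygenase 1 (Hmox1), which breaks down haem, had 53.6, 93.9, 62.2 and 38.5 CPM in CCl4 livers, against 14.6, 11.2, 12.96 and 18.04 CPM in oil livers (2.13 ± 0.22, adjusted p = 1.1e-07), and the groups were separate. Nqo1, a textbook target of NRF2, was not called (-0.42 ± 0.37, adjusted p = 0.369). The antioxidant element core TGACNNNGC was held by 6 of 29 genes of this list (20.7%), against 13.7% of all tested genes with a window. The list gathers known NRF2 targets, so its share does not bear on CCl4. Of 26 AP-1 and immediate-early factors 21 were higher and 2 lower (median 1.65), and without CCl4 animal 2, 16 were higher and 1 lower (median 1.26). Fos had 13.9, 12.4, 11.5 and 3.39 CPM in CCl4 livers, against 2.31, 2.03, 0.758 and 2.41 CPM in oil livers (2.47 ± 0.42, adjusted p = 4.01e-05). Maff, a small Maf protein, had 21.2, 127, 22.2 and 4.81 CPM in CCl4 livers, against 2.53, 4.44, 2.23 and 2.25 CPM in oil livers (3.94 ± 0.63, adjusted p = 2.42e-05); without CCl4 animal 2 Maff changed by 2.50. Junb averaged 43.4 ± 30.5 CPM in CCl4 livers and 14.8 ± 12.4 CPM in oil livers (1.55 ± 0.44, adjusted p = 0.00545). Myc averaged 70.3 ± 24.99 CPM in CCl4 livers and 9.04 ± 6.33 CPM in oil livers (2.96 ± 0.36, adjusted p = 6.85e-07). Animal 4 had the lowest CCl4 value for Fos and Maff. Jun itself was called (1.18 ± 0.38, adjusted p = 0.012) but not without animal 2 (0.88, adjusted p = 0.0729). Of 20 targets of p53, which arrests damaged cells, 13 were higher and 1 lower (median 1.00). The cell cycle inhibitor Cdkn1a had 85.96, 171, 64.5 and 76.4 CPM in CCl4 livers, against 50.8, 6.91, 31.4 and 27.4 CPM in oil livers (1.77 ± 0.43, adjusted p = 0.00137). Mdm2, the ligase that degrades p53, averaged 59.9 ± 14.2 CPM in CCl4 livers and 34.8 ± 2.81 CPM in oil livers (0.78 ± 0.14, adjusted p = 0.000111).

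Genes that build ribosomes rose, with 25 of 26 ribosome biogenesis genes higher and none lower (median 0.99), the highest share of any list of more than 20 genes. Nucleolin (Ncl) had 506, 622, 472 and 426 CPM in CCl4 livers, against 187, 192, 259 and 344 CPM in oil livers (1.05 ± 0.20, adjusted p = 0.0002). The nucleolar factor Wdr43 averaged 74.3 ± 30.8 CPM in CCl4 livers and 27.9 ± 3.22 CPM in oil livers (1.41 ± 0.22, adjusted p = 1.37e-05) and Nop56, of the snoRNA particles, averaged 83.00 ± 57.4 CPM in CCl4 livers and 21.1 ± 3.56 CPM in oil livers (1.97 ± 0.38, adjusted p = 0.000172). The groups were separate for all 3. Of 76 cytosolic ribosomal protein genes 38 were higher and none lower, with a median of only 0.29, and this count fell to 8 when the fit held only the 8 libraries and was 73 with library totals as the only scaling. Of 22 genes of cyclins and cell cycle entry 10 were higher and 1 lower (median 0.69). Ccnd1, the cyclin that carries hepatocytes past the start of the cycle, had 129, 21.9, 81.8 and 139 CPM in CCl4 livers, against 18.1, 17.1, 12.5 and 26.7 CPM in oil livers (2.32 ± 0.36, adjusted p = 1.89e-05). Ccne1, the next cyclin, had 5.33, 5.07, 3.04 and 2.06 CPM in CCl4 livers, against 0.169, 0.274, 0.126 and 0.837 CPM in oil livers (3.46 ± 0.49, adjusted p = 4.9e-06). Of 24 mitosis genes 6 were higher and none lower (median 0.94), with 4 higher without CCl4 animal 2, all at low levels; Cdc20, an activator of chromosome separation, averaged 1.52 ± 0.479 CPM in CCl4 livers and 0.401 ± 0.304 CPM in oil livers (1.89 ± 0.63, adjusted p = 0.016). The proliferation marker Mki67 had 1.803, 2.14, 2.29 and 4.16 CPM in CCl4 livers, against 1.46, 1.26, 0.968 and 2.72 CPM in oil livers and was not called (0.70 ± 0.45, adjusted p = 0.201). Of 24 DNA replication genes 8 were higher and 2 lower (median 0.30). Thymidine kinase (Tk1), which makes a DNA precursor, was one of the 2 lower, with 4.37, 1.03, 2.29 and 10.3 CPM in CCl4 livers, against 30.99, 36.9, 20.8 and 23.5 CPM in oil livers (-2.64 ± 0.41, adjusted p = 1.7e-05). Tk1 (ENSMUSG00000025574, chr11:117815526-117826092 on GRCm38) overlaps the 5′ end of Afmid (ENSMUSG00000017718, chr11:117825924-117839908 on GRCm38), a kynurenine pathway gene on the other strand that fell with it (-3.25 ± 0.43, adjusted p = 1.95e-06). Since the strand setting of the counting is not given in the sources used here, reads in the overlap cannot be told apart.

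Genes of the cytoskeleton rose, and those of keratins and junctions were mixed. Of 21 keratin and junction genes 10 were higher and 6 lower, of 29 actin cytoskeleton genes 22 were higher and 1 lower (median 0.70), and of 15 tubulin genes 10 were higher and none lower (median 0.95). The hepatocyte keratin Krt8 had 736, 2415, 1079 and 422 CPM in CCl4 livers, against 198, 189, 225 and 265 CPM in oil livers (2.41 ± 0.44, adjusted p = 9.56e-05); its partner Krt18 averaged 826 ± 531 CPM in CCl4 livers and 200.3 ± 51.7 CPM in oil livers (2.04 ± 0.38, adjusted p = 0.000128). Ly6d, a surface protein of squamous and progenitor cells, had 97.8, 341, 157 and 53.8 CPM in CCl4 livers, against 1.86, 1.59, 1.09 and 1.05 CPM in oil livers (6.87 ± 0.67, adjusted p = 4.58e-08). Sprr1a, a cornified envelope protein also known from wounded tissue, had 330.3, 323, 36.9 and 21.3 CPM in CCl4 livers, against 0.0562, 0.1097, 0 and 0.105 CPM in oil livers. Annexin A2 (Anxa2) averaged 347 ± 173 CPM in CCl4 livers and 39.6 ± 20.4 CPM in oil livers (3.13 ± 0.36, adjusted p = 4.75e-07). The tubulin Tubb6 averaged 106 ± 58.8 CPM in CCl4 livers and 8.96 ± 5.796 CPM in oil livers (3.56 ± 0.43, adjusted p = 7.04e-07). None of these overlapped between the groups. Ly6d and Sprr1a are also known from squamous epithelia, and CCl4 animal 2 held stomach transcripts; without that animal the log2 fold changes were 6.22 for Ly6d and 10.88 for Sprr1a, against 6.87 and 11.32 with it.

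Of 19 ductular and progenitor genes 10 were higher and 2 lower (median 1.11). Sox9, the duct and progenitor factor, had 30.4, 27.6, 51.8 and 13.3 CPM in CCl4 livers, against 11.1, 11.9, 6.06 and 12.4 CPM in oil livers (1.57 ± 0.31, adjusted p = 0.00024). Among the 6 defining cholangiocyte genes 4 were higher, with Krt19 averaging 5.43 ± 2.67 CPM in CCl4 livers and 2.33 ± 1.25 CPM in oil livers (1.22 ± 0.40, adjusted p = 0.0143). The adhesion molecule Epcam was not called (0.68 ± 0.49, adjusted p = 0.269). Alpha-fetoprotein (Afp), a fetal hepatocyte protein, had 11.9, 12.6, 19.9 and 4.73 CPM in CCl4 livers, against 0.731, 0.713, 2.02 and 1.62 CPM in oil livers (3.25 ± 0.42, adjusted p = 1.63e-06). The imprinted fetal RNA H19 was not called (1.38 ± 1.14, adjusted p = 0.331). Of 12 genes of the EGF receptor family 6 were higher and 1 lower (median 0.88), and without CCl4 animal 2, 5 were higher and 1 lower (median 0.28). The ligand Areg averaged 7.12 ± 8.78 CPM in CCl4 livers and 0.168 ± 0.273 CPM in oil livers (5.37 ± 1.08, adjusted p = 0.000327; 4.03 without CCl4 animal 2, adjusted p = 0.00299). Betacellulin (Btc) had 12.98, 68.5, 13.9 and 5.82 CPM in CCl4 livers, against 3.94, 4.66, 5.13 and 5.44 CPM in oil livers (2.40 ± 0.47, adjusted p = 0.000207). Without CCl4 animal 2 the Btc change was 1.19 (adjusted p = 0.00537), and for the survival factor Bcl2l1 it was 1.09 in place of 2.54 ± 0.48. The ligand Nrg4 was called only with that animal (1.89 ± 0.58, adjusted p = 0.00954; 0.22 without it, adjusted p = 0.714).

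The matrix response was uneven among animals. Of 6 fibrillar collagen genes 4 were higher and 1 lower (median 1.27). Col1a1 had 46.5, 13.9, 8.18 and 31.1 CPM in CCl4 livers, against 2.53, 6.198, 3.28 and 5.49 CPM in oil livers (2.51 ± 0.45, adjusted p = 7.54e-05). Col3a1 had 82.6, 28.1, 16.5 and 78.3 CPM in CCl4 livers, against 15.4, 23.8, 18.6 and 31.2 CPM in oil livers (1.21 ± 0.41, adjusted p = 0.0181). Animals 1 and 4 were high for both, while animals 2 and 3 lay close to or within the oil range for Col3a1. Collagen processing genes rose more evenly, with 10 of 15 higher and 1 lower (median 0.79). The crosslinking oxidase Lox averaged 2.96 ± 1.39 CPM in CCl4 livers and 0.275 ± 0.171 CPM in oil livers (3.38 ± 0.55, adjusted p = 2.54e-05). The proteoglycan versican (Vcan) averaged 2.63 ± 1.099 CPM in CCl4 livers and 0.0785 ± 0.0352 CPM in oil livers (5.0 ± 0.58, adjusted p = 4.19e-07). Fibronectin (Fn1), which hepatocytes also secrete, was not called (-0.01 ± 0.22, adjusted p = 0.965).

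Of 14 contractile genes of myofibroblasts 9 were higher and none lower (median 1.01), and 6 without CCl4 animal 2 (median 0.56). In the mean log2 level of the list the other 3 CCl4 livers lay 0.43 to 0.50 above the oil mean and animal 2 lay 1.87 above it. Smooth muscle actin (Acta2) had 6.21, 18.6, 3.07 and 4.61 CPM in CCl4 livers, against 2.76, 1.21, 1.77 and 4.81 CPM in oil livers (1.62 ± 0.57, adjusted p = 0.0211). Without animal 2 it was not called (0.82, adjusted p = 0.247). Of 16 genes of quiescent stellate cells 2 were higher and 4 lower (median -0.04), and 1 higher and 4 lower without animal 2. Among the lower ones were the collectin genes Colec10 (-1.10 ± 0.20, adjusted p = 0.000113) and Colec11 (-0.94 ± 0.23, adjusted p = 0.00171). Desmin (Des), a higher member of this list, had 5.49, 39.8, 5.43 and 4.97 CPM in CCl4 livers, against 3.99, 5.81, 3.66 and 4.97 CPM in oil livers, and its change was 0.21 (adjusted p = 0.783) without animal 2, the library that held skeletal muscle genes. Among YAP and matricellular targets 10 of 13 were higher and none lower, but 4 without animal 2. Ccn2, a matricellular growth factor, had 13.6, 138, 13.7 and 7.96 CPM in CCl4 livers, against 6.24, 6.86, 12.1 and 9.99 CPM in oil livers (2.29 ± 0.65, adjusted p = 0.00519; 0.42 without animal 2, adjusted p = 0.507). Thbs1, thrombospondin 1 of the glycoprotein list, held without it: the 4 CCl4 livers had 16.1, 50.2, 16.1 and 7.92 CPM, against 1.57, 2.30, 2.02 and 2.20 CPM in the oil livers, with a log2 fold change of 3.47 ± 0.49, and 2.73 without animal 2. The retinol esterase Lrat, which marks quiescent stellate cells, was not called (0.14 ± 0.26, adjusted p = 0.679).

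Enzymes that cut the matrix rose together with their inhibitor Timp1: of 23 matrix protease genes 15 were higher and 3 lower (median 1.51), and Timp1 (ENSMUSG00000001131, chrX:20870166-20874735 on GRCm38) had 22.6, 24.99, 7.898 and 6.34 CPM in CCl4 livers, against 0.0562, 0.439, 0.2104 and 0.575 CPM in oil livers (5.58 ± 0.56, adjusted p = 6.36e-08). The macrophage elastase Mmp12 (ENSMUSG00000049723, chr9:7344381-7369499 on GRCm38) had 35.4, 33.1, 29.6 and 27.9 CPM in CCl4 livers, against 0.4499, 0.768, 0.2104 and 1.098 CPM in oil livers (5.66 ± 0.63, adjusted p = 2.86e-07). Its 4 CCl4 values lay close together, between 27.9 and 35.4 CPM. The collagenase Mmp13 (ENSMUSG00000050578, chr9:7272514-7283331 on GRCm38) had 6.77, 3.92, 6.15 and 1.45 CPM in CCl4 livers, against 0.0562, 0.165, 0.0842 and 0.105 CPM in oil livers (5.41 ± 0.75, adjusted p = 3.96e-06). Matrilysin, Mmp7, had 12.3, 6.06, 1.39 and 2.06 CPM in CCl4 livers, against 0.169, 2.96, 1.01 and 0.209 CPM in oil livers (2.32 ± 0.76, adjusted p = 0.0143). Mmp8, the neutrophil collagenase, changed by 4.54 ± 0.84, and by 2.28 without CCl4 animal 2. An AP-1 site, searched as TGANTCA, was held by 4 of 13 matrix protease genes with a window (30.8%), against 6.0% of all tested genes with one, and by none of 21 AP-1 and immediate-early genes. Among all genes called higher the share was 7.15%, and among those called lower 6.2%. All 4 holders are matrix metalloproteinase genes on chromosome 9, so they are not independent cases. Whether the site had a part in their rise was not tested. The 3 windows below lie in the protease cluster on chromosome 9 (RefSeq, GRCm38.p6, gene strand, 5′ to 3′) and carry the site in capitals.
Mmp12 (chr9:7347290-7347373, plus strand): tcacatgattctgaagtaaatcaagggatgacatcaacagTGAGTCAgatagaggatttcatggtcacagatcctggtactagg
Mmp13 (chr9:7272439-7272513, plus strand): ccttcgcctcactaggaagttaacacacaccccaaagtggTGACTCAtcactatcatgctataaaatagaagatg
Mmp7 (chr9:7691987-7692073, plus strand): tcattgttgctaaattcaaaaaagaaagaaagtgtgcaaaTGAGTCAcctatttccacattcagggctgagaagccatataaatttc

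Immune genes divided by cell type. Markers of monocyte-derived and lipid-associated macrophages were higher in 14 of 20 and lower in 1 (median 1.37), while of 14 markers of Kupffer cells, the resident macrophages, 3 were higher and none lower (median 0.08). Gpnmb, a glycoprotein of lipid-laden macrophages, had 30.7, 21.8, 18.3 and 28.6 CPM in CCl4 livers, against 0.4499, 0.329, 0.2104 and 1.57 CPM in oil livers (5.29 ± 0.61, adjusted p = 3.89e-07). Trem2, a lipid receptor of the same cells, had 5.85, 4.45, 2.57 and 11.9 CPM in CCl4 livers, against 0.956, 1.04, 0.758 and 1.15 CPM in oil livers (2.66 ± 0.49, adjusted p = 0.000102). The Kupffer lectin Clec4f had 20.04, 24.4, 23.6 and 63.1 CPM in CCl4 livers, against 55.6, 45.5, 44.4 and 29.6 CPM in oil livers and was not called (-0.42 ± 0.30, adjusted p = 0.259). Animal 4 was highest for Trem2 and for Clec4f. Marco, a scavenger receptor and one of the 3 Kupffer markers that rose, averaged 67.05 ± 27.9 CPM in CCl4 livers and 7.99 ± 5.15 CPM in oil livers (3.08 ± 0.42, adjusted p = 3.52e-06).

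All 14 neutrophil genes tested were higher (median 3.73), and 12 were higher without CCl4 animal 2 (median 1.93). In the fit of the 8 libraries alone 10 were higher, and the rest did not pass its filter on counts. The list includes Lcn2, which is also counted with the acute-phase genes. S100a8, a calcium-binding protein of neutrophil granules, had 9.097, 105, 16.1 and 5.66 CPM in CCl4 livers, against 3.32, 2.96, 1.05 and 3.03 CPM in oil livers (3.72 ± 0.63, adjusted p = 4.25e-05; 2.01 without animal 2). Cxcr2, the receptor that draws neutrophils, had 2.04, 9.07, 3.29 and 0.767 CPM in CCl4 livers, against 1.12, 0.439, 0.295 and 0.837 CPM in oil livers (2.50 ± 0.50, adjusted p = 0.000224). In the mean log2 level of the list, animal 2 lay 4.69 above the oil mean and the other 3 CCl4 livers 1.68 to 2.37 above it. Of 19 chemokine genes 13 were higher and 3 lower (median 1.37). Ccl2, which recruits monocytes, had 8.66, 30.4, 14.6 and 1.41 CPM in CCl4 livers, against 0.731, 0.823, 0.421 and 1.36 CPM in oil livers (4.05 ± 0.64, adjusted p = 2.04e-05). Cxcl2, which recruits neutrophils, averaged 8.56 ± 11.98 CPM in CCl4 livers and 0.156 ± 0.07800 CPM in oil livers (5.75 ± 0.93, adjusted p = 2.73e-05; 4.05 without animal 2, adjusted p = 0.000228). Cxcl12, a chemokine made by stromal and endothelial cells, was lower, with 192, 95.8, 221 and 238 CPM in CCl4 livers, against 485, 542, 491 and 431 CPM in oil livers (-1.38 ± 0.21, adjusted p = 1.36e-05). Cxcl1 was not called (1.07 ± 0.65, adjusted p = 0.178). Among cytokine and receptor genes of the acute phase 14 of 27 were higher and 5 lower (median 0.49). Without animal 2, 10 were higher and 5 lower (median 0.15). Il1r1, a receptor of interleukin 1, averaged 60.7 ± 18.1 CPM in CCl4 livers and 28.8 ± 8.896 CPM in oil livers (1.08 ± 0.29, adjusted p = 0.00335). Tnf averaged 1.096 ± 0.517 CPM in CCl4 livers and 0.335 ± 0.182 CPM in oil livers (1.74 ± 0.52, adjusted p = 0.00757). Il1b was not called (0.26 ± 0.38, adjusted p = 0.609).

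Of 22 interferon-stimulated genes 18 were higher and none lower (median 1.57), and 20 without CCl4 animal 2. Rsad2, an antiviral enzyme, had 73.7, 46.4, 71.6 and 19.1 CPM in CCl4 livers, against 9.22, 5.54, 8.63 and 7.79 CPM in oil livers (2.76 ± 0.31, adjusted p = 2.95e-07). Isg15, a ubiquitin-like modifier, had 57.2, 19.4, 57.9 and 10.1 CPM in CCl4 livers, against 6.02, 3.67, 3.91 and 3.45 CPM in oil livers (3.09 ± 0.37, adjusted p = 7.04e-07). Animals 1 and 3 were high, and animal 4 low, though above every oil liver. Lymphocyte markers did not rise as a group, with 1 of 20 higher and 4 lower (median -0.21). Cd3e, of the T cell receptor complex, averaged 0.499 ± 0.194 CPM in CCl4 livers and 1.19 ± 0.782 CPM in oil livers (-1.22 ± 0.44, adjusted p = 0.0241). Cd3g averaged 0.385 ± 0.179 CPM in CCl4 livers and 0.981 ± 0.378 CPM in oil livers (-1.31 ± 0.36, adjusted p = 0.00413). Against these, the constant region gene of the T cell receptor delta chain, Trdc (ENSMUSG00000104876, chr14:54142851-54148868 on GRCm38), had 89.2, 48.2, 12.7 and 13.9 CPM in CCl4 livers, against 0.225, 0.1097, 0.126 and 0.314 CPM in oil livers (7.70 ± 0.86, adjusted p = 2.91e-07). The lowest CCl4 liver, at 12.7 CPM, was far above the highest oil liver, at 0.314 CPM, and the change without animal 2 was 7.63. Whether its reads came from rearranged receptor transcripts could not be seen in counts per gene.

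The sinusoidal endothelium had 2 of 23 markers higher and 8 lower (median -0.05), and none higher and 6 lower without CCl4 animal 2. The scavenger receptor Stab2 had 33.9, 45.6, 47.6 and 52.7 CPM in CCl4 livers, against 70.9, 78.1, 80.5 and 67.5 CPM in oil livers (-0.72 ± 0.16, adjusted p = 0.000536). The VEGF receptor Kdr averaged 27.5 ± 4.92 CPM in CCl4 livers and 53.5 ± 12.2 CPM in oil livers (-0.96 ± 0.19, adjusted p = 0.000281). Lyve1, a hyaluronan receptor, was higher (1.36 ± 0.43, adjusted p = 0.0107) but not without animal 2 (0.50, adjusted p = 0.278). Procr, the endothelial protein C receptor, which is counted with the coagulation genes, had 8.66, 24.7, 5.72 and 1.94 CPM in CCl4 livers, against 0.8998, 0.494, 0.7997 and 0.575 CPM in oil livers (3.87 ± 0.47, adjusted p = 7.04e-07), and the groups were separate.

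The CCl4 livers differed more among themselves than the oil livers did. The median SD of log2 CPM over the 15599 genes was 0.385 in CCl4 livers and 0.238 in oil livers, and it was 0.268 in the 3 CCl4 livers other than animal 2; 71.1% of genes had the larger SD in CCl4 livers. By the mean log2 level of each list relative to the oil mean, fibrillar collagens stood at 1.51 and 1.41 in animals 1 and 4 and at 0.09 and -0.17 in animals 2 and 3. Bile acid synthesis stood at -1.74, -2.94, -2.23 and -0.74 in animals 1 to 4, and amino acid catabolism at -1.57, -2.36, -1.76 and -0.82. In both lists the loss was deepest in animal 2 and shallowest in animal 4. Other metabolic lists ordered the animals differently: cholesterol synthesis stood at -0.72, -1.81, -0.09 and -1.33 in animals 1 to 4, the nuclear-encoded respiratory chain at -0.41, -0.41, -0.57 and -0.27, and the mitochondrially encoded transcripts at -0.86, -0.54, -0.58 and -0.45. The AP-1 list also lay furthest from the oil mean in animal 2 (2.47) and nearest in animal 4 (0.68), whereas the fibrillar collagens did not.

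**Figure D4:**
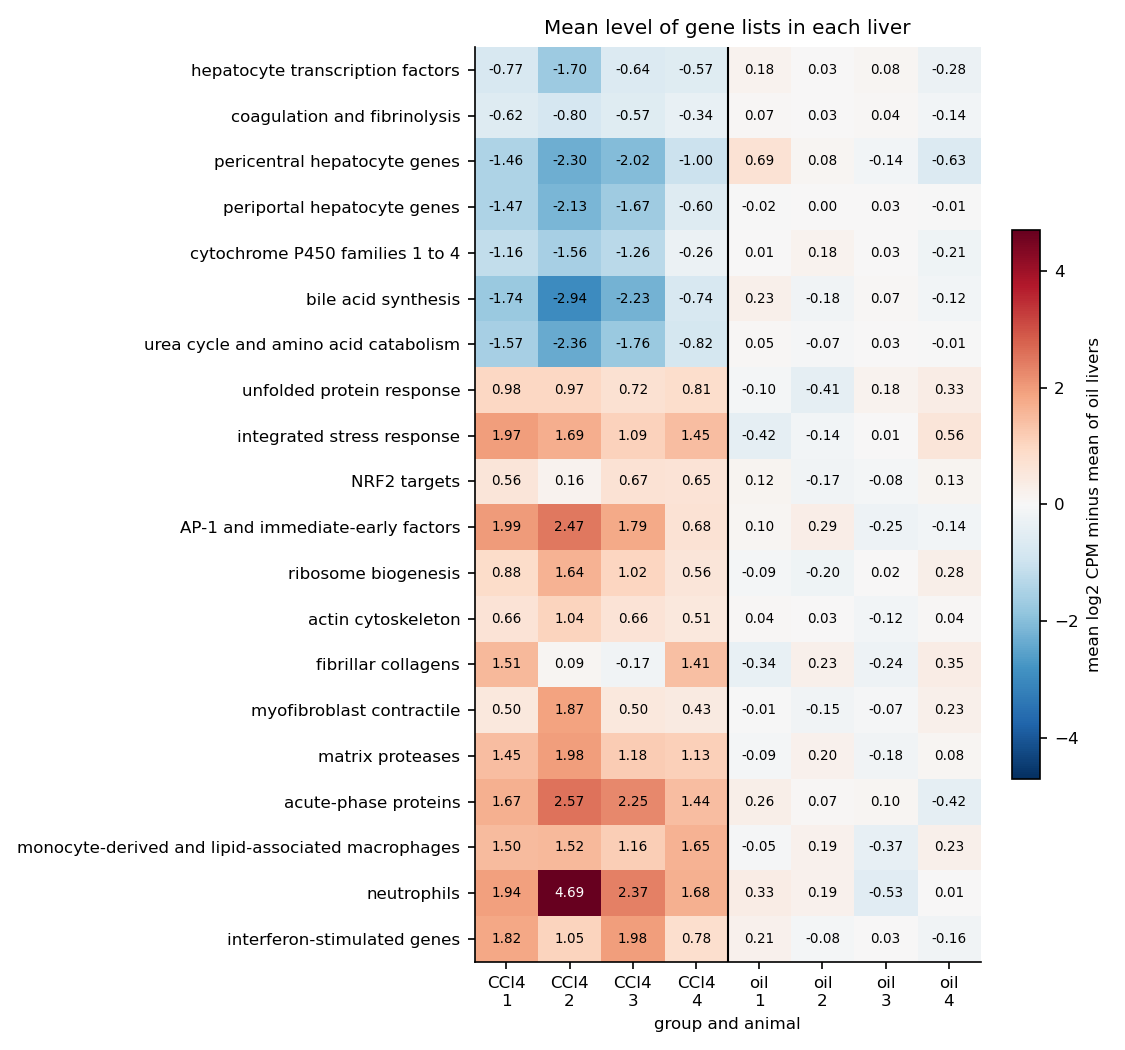
Mean log2 CPM of the tested members of 20 gene lists in each of the 8 livers, relative to the mean of the 4 oil livers, with CCl4 animals in the 4 columns on the left and oil animals on the right. Red is above and blue below the oil mean; animal 2 has the lowest levels of bile acid synthesis and amino acid catabolism and the highest of neutrophil and AP-1 genes, and animals 1 and 4 the highest fibrillar collagens.

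The response in wild-type mice was set against that in Thrb knockout mice on the same diet and PBS, by the difference of the 2 responses (wild type minus knockout). Of 15599 genes 3 differed (0.0192%), all larger in wild type and none smaller, while 1242 genes had an unadjusted p below 0.05. Saa1 averaged 1829 ± 1318 CPM in CCl4 livers and 6.53 ± 1.11 CPM in oil livers in wild-type mice, and 68.5 ± 75.1 CPM with CCl4 and 13.7 ± 10.1 CPM with oil in the knockout, and the difference of the log2 responses was 5.81 ± 1.06, adjusted p = 0.0384. For Saa2 the difference was 7.23 ± 1.32, adjusted p = 0.0384. Ciapin1, an iron-sulphur cluster assembly factor, averaged 55.03 ± 8.49 CPM in CCl4 livers and 18.3 ± 3.67 CPM in oil livers in wild-type mice, and 48.4 ± 7.22 CPM with CCl4 and 31.7 ± 2.19 CPM with oil in the knockout (0.98 ± 0.18, adjusted p = 0.0384). In the fit of only the 4 groups compared no gene passed. Leaving out 1 library at a time gave 0 to 14 genes: 0 without wild-type CCl4 animal 2, 14 without wild-type CCl4 animal 4, 1 without wild-type CCl4 animal 3 or wild-type oil animal 4, and 0 without wild-type oil animal 1, 2 or 3, any knockout oil animal, or knockout CCl4 animal 3 or 4. Cyp2e1 averaged 1062 ± 587 CPM in CCl4 livers and 7638 ± 3124 CPM in oil livers in wild-type mice, and 577 ± 346 CPM with CCl4 and 4990 ± 719.9 CPM with oil in the knockout, and its response differed by 0.27 ± 0.59, adjusted p = 0.912. An unpassed test does not show that the genotypes responded alike.

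With T3 in the last week the comparison came out otherwise: 3722 of 15599 genes (23.9%) responded differently to CCl4. The log2 response of PBS mice minus that of T3 mice was above 0 for 2038 of them (13.1%) and below 0 for 1684 (10.8%), and 2655 of 15814 (16.8%) differed without CCl4 animal 2, 1402 above 0 (8.87%) and 1253 below (7.92%). Interferon-stimulated genes had the smallest adjusted p. Rsad2 averaged 52.7 ± 25.6 CPM with CCl4 and 7.80 ± 1.61 CPM with oil in PBS mice, and 11.5 ± 1.31 CPM with CCl4 and 36.3 ± 7.29 CPM with oil in T3 mice. The group means thus ran in opposite directions, and the difference was 4.41 ± 0.43, adjusted p = 4.51e-07. Xaf1, an interferon-induced antagonist of apoptosis inhibitors, differed by 2.92 ± 0.29, adjusted p = 4.51e-07, and of the 22 genes on the list 20 differed with a sign above 0 and none below (median difference 2.82). Oasl2 (3.08 ± 0.33, adjusted p = 1.81e-06), Ifit3 (3.41 ± 0.37, adjusted p = 1.85e-06) and Ifit1 (3.68 ± 0.40, adjusted p = 1.86e-06) were also among the 6 with the smallest adjusted p, together with Adam11, a membrane protein of the ADAM family (-3.86 ± 0.43, adjusted p = 2.35e-06).

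Of 24 mitosis genes 23 differed with a sign above 0 and none below (median difference 3.80), although only 6 were called in PBS mice. Mki67 averaged 2.60 ± 1.06 CPM with CCl4 and 1.60 ± 0.771 CPM with oil in PBS mice, and 5.78 ± 1.76 CPM with CCl4 and 35.9 ± 12.9 CPM with oil in T3 mice (3.34 ± 0.60, adjusted p = 0.000441). The oil livers of T3 mice were thus the high group, and the positive difference for Mki67 goes with a lower level under CCl4 in T3 mice. Cyp2e1, 7.19-fold lower with CCl4 in PBS mice, averaged 1042 ± 164 CPM with CCl4 and 1071 ± 193 CPM with oil in T3 mice (-2.81 ± 0.60, adjusted p = 0.00204). In the unfolded protein response list, 3 of 23 genes differed with a sign above 0 and none below (median difference 0.10). Over all genes 13.1% differed above 0, so this count lies near the background, and uncalled genes are not thereby shown to respond alike. Hspa5 had 1276, 1169, 1368 and 725.9 CPM with CCl4 in T3 mice, against 706.6, 545.4, 1026 and 651.6 CPM with oil. The T3 and PBS responses had separate oil controls, and the oil livers of the 2 treatments differed in level, as the Mki67 and Cyp2e1 values show.

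**Figure D5:**
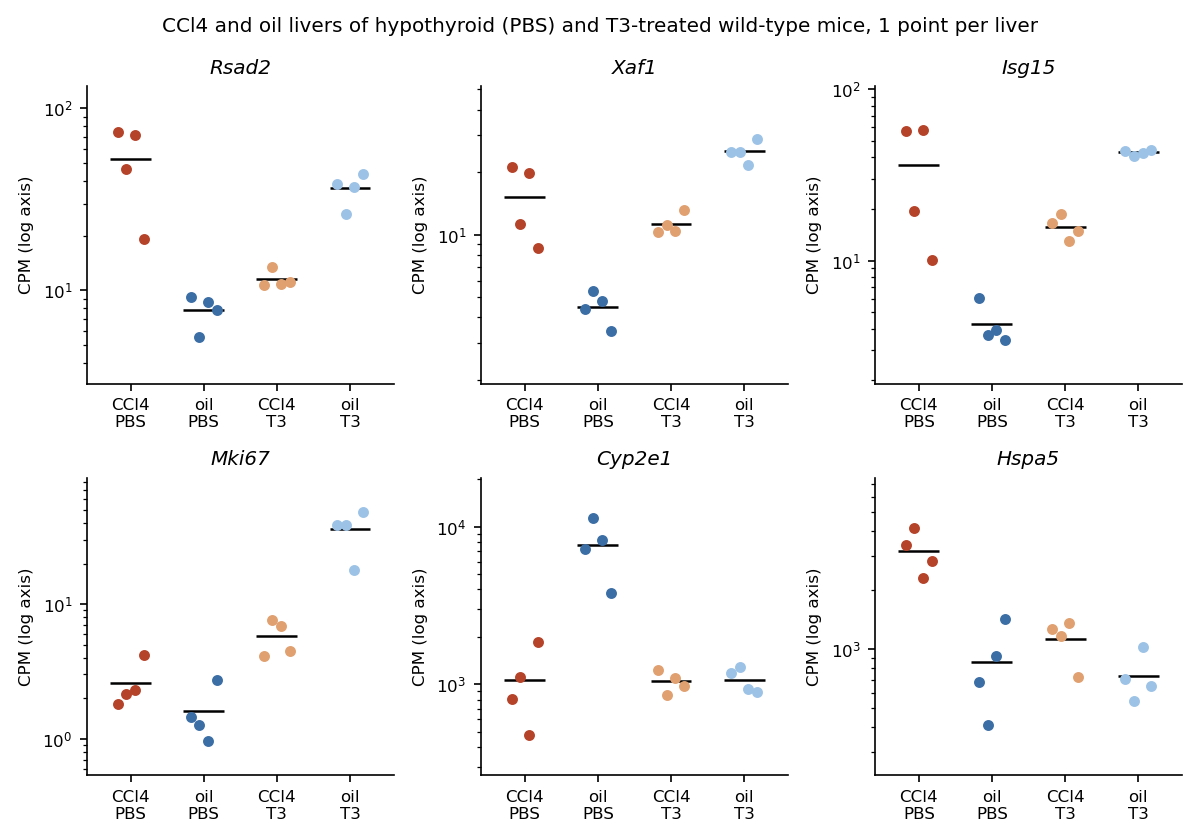
CPM of 6 genes in each liver, on log axes, in CCl4 and oil livers of PBS mice (left pair) and of T3 mice (right pair), with a horizontal line at each group's mean. For Rsad2, Xaf1 and Isg15 the CCl4 livers lie above the oil livers in PBS mice and below them in T3 mice. The CCl4 livers of the 2 treatments overlap for Xaf1 and Isg15. Mki67 is highest in the oil livers of T3 mice, Cyp2e1 is high only in the oil livers of PBS mice, and Hspa5 is higher with CCl4 in PBS mice.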

How the data were processed

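Liver RNA of 32 mice was sequenced from polyadenylated RNA, 4 mice in each group used here. The authors deposited raw counts per gene for 52636 Ensembl genes, of which 52403 matched GENCODE vM21. The submitters' processing notes name FastQC 0.11.5, Trim Galore, cutadapt, STAR 2.7.9a and GRCm38; they name no counting tool and no strand setting. Per the labels' protocols an unstranded or a stranded TruSeq kit was used, without word on which served which library, so a gene and its antisense partner cannot be told apart.

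All 32 libraries entered one fit of edgeR 4.0.16 (R 4.3.3): filterByExpr by group (minimum count 10, minimum total count 15), TMM scaling, quasi-likelihood tests and Benjamini-Hochberg adjustment over all 15599 genes, called below 0.05 with no minimum fold. The step was tested on simulated data for the CCl4 against oil comparison of 15302 genes, where it recovered 32% of genes changed 1.5-fold, 62.5% at 2-fold, 89.8% at 4-fold and 92% at 8-fold, with 3.55% false calls. The simulated counts had 200 changed genes and otherwise the same mean and spread per gene in all groups. No simulated library held transcripts of another tissue. The 3.55% therefore does not give the false share among the 7202 calls of the real data. Libraries were grouped by their labels. The labels number the mice but give no link between mice of different groups.

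Alternatives were DESeq2 1.42.0, limma 3.58.1 voom with sample weights, other scalings, no filter, a minimum fold of 1.5, a fit of only the groups compared, a replicate block and leaving out each library. Leaving out both libraries with muscle transcripts was chosen after seeing the data, as were the muscle and stomach lists and the ER stress and composite elements. The members and gene lists were chosen with earlier results of these data known. Genes were named by a rule: a fixed set, the members of each list with the smallest adjusted p, those against the majority, the highest uncalled ones, the 15 largest rises and falls reaching 5 CPM without overlap, the 10 largest gains and losses in CPM, the 10 largest SDs among CCl4 livers, and the largest differences between responses; 43 of 158 named genes fall outside it and were chosen after their values were seen. A few list members are not reported here by name. Promoter windows and motifs use RefSeq on GRCm38.p6.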

Additional observations from a re-analysis of the deposited data

Results flagged for a closer look

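In 30 of 316 groups of 4 livers checked for the named genes, the gap between the highest or lowest liver and the next one took up more of the group's range than Dixon's critical value allows. Chance flags about 1 group in 20 when genes are not selected, but the named genes were selected, 43 of them after their values were seen, so the 2 shares cannot be set side by side. Of these 30 groups, 14 had CCl4 animal 2 as the highest liver, and 6 had oil animal 4.

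CCl4 animal 2 was far above the other 3 CCl4 livers for Des (gap ratio 0.985), H19 (0.97), Nrg4 (0.958), Ccn2 (0.956), Mmp8 (0.931), Lyve1 (0.9), Bcl2l1 (0.898), S100a8 (0.894), Cxcl2 (0.891), Wfdc3 (0.891), Btc (0.87), Maff (0.858), Mt2 (0.839) and Areg (0.836). The same library held muscle and stomach transcripts, whose part in these values was not tested. CCl4 animal 4 was highest for Clec4f (0.9), H2-Q1 (0.876), Cyp4a14 (0.842) and Afmid (0.833) and lowest for Oasl2 (0.919). CCl4 animal 1 was lowest for mt-Co1 (0.878) and CCl4 animal 3 for Lox (0.837). Among oil livers, animal 4 was highest for Ddit3 (0.945), Areg (0.905), Atf3 (0.891), Krt18 (0.874), Hamp (0.857) and H19 (0.833), animal 1 for Sult3a1 (0.87) and animal 2 for Maff (0.864), and animal 3 was lowest for S100a8 (0.843).

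The response to CCl4 differed between wild-type and knockout mice on the test of the difference itself for Saa2 (7.23), Saa1 (5.81) and Ciapin1 (0.98), on the log2 scale as wild type minus knockout. Between PBS and T3 mice it differed most clearly for Rsad2 (4.41), Ifit1 (3.68), Ifit3 (3.41), Oasl2 (3.08) and Xaf1 (2.92), given as the log2 response of PBS mice minus that of T3 mice, and for Adam11 (-3.86).

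Skeletal muscle genes summed to 1094 CPM in CCl4 animal 2 and to 2044 CPM in animal 3 of the knockout CCl4 group. Stomach genes summed to 199.9 CPM in CCl4 animal 2. The oil livers of wild-type PBS mice had at most 0.713 CPM of the muscle list.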

How the results depend on the processing

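The direction of the 158 named genes never turned round among called values under any alternative run, and between 134 and 157 of them kept their call, depending on the setting. The count for CCl4 against oil was 7202. It was 4504 in the fit of only the 2 groups compared (2512 higher and 1992 lower) and 2575 with a minimum fold of 1.5 (1379 higher and 1196 lower). With library totals alone it split into 6941 higher and 1549 lower. Leaving out 1 library gave 5731 to 7824 genes, 2990 to 4119 of them higher and 2741 to 3705 lower. For the difference between wild-type and knockout responses, 3 genes became 8 with limma voom, 0 with the minimum fold, 0 with only the groups compared, 0 without both libraries with muscle transcripts, and 0 to 14 with 1 library left out. For the difference between PBS and T3 responses, 3722 genes became 965 with the minimum fold and 6004 with library totals alone, and leaving out 1 library gave 2651 to 5079. For CCl4 against oil, the larger number called higher with library totals goes with a shift of that comparison's median over all genes to 0.43. The cause of the other differences was not tested. Counts for the gene lists stayed within 1.5 times in 106 of 148 cases with only the 8 libraries and in 122 of 148 without CCl4 animal 2. They did so in only 66 of 148 cases with the minimum fold of 1.5 and in 90 of 148 with library totals alone.

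Same-numbered mice of the CCl4 and oil groups did not deviate together (correlations of deviations -0.21, -0.0238, -0.0225 and -0.138 over genes), so the number is no pairing. With the replicate block 3743 genes were higher and 3383 lower. Genes under about 1 CPM rest on few reads at 19260459 to 26118055 counts per library, and their fold changes depend on the prior count.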
